A study of Mus with 9 samples.

Results

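The infarction comparison was restricted to the 6 of 9 libraries with the highest level of Myl7, 2 from sham-operated and 4 from infarcted mice. They are called atrial-rich below, after this atrial muscle gene alone. The libraries were selected on the level of Myl7, the gene of the atrial regulatory myosin light chain, and kept where it reached 300 CPM (read counts scaled to a common library total) on the column total. The libraries come from male wild-type (WT) C57BL/6J mice aged 8 to 10 weeks. Sham 1 and Sham 3 had sham surgery and vehicle. MI 2, MI 3 and MI 4 had a permanently tied left anterior descending coronary artery and vehicle. MI_ART 2 had the same ligation and artesunate (ART), an antimalarial artemisinin derivative dissolved in dimethyl sulfoxide and injected into the peritoneum. The 3 libraries left out are Sham 2, MI_ART 1 and MI_ART 3. The sources give the artesunate dose both as 25 mg/kg daily for 7 days from surgery and as 10 mg/kg every other day, from 2 days before surgery to day 7. They name the tissue both atria and left atrium, and the animals both mice and rats, and no day of harvest is given. No source ties each library to an animal of its own, and p-values therefore reflect only how far the samples of a group lie apart, which may be technical.

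Atrial myocytes differ from ventricular myocytes in their light chains, their ion channels and their store of natriuretic peptide, and they are the cells in which atrial fibrillation arises. Ligating the coronary artery kills ventricular muscle, and the infarct is then cleared by neutrophils and macrophages and filled by matrix from activated fibroblasts. The atria do not lie in the ligated territory but face the raised filling pressure and the circulating signals that follow, and are known to stretch, take up leukocytes and stiffen. A piece of atrium that carries ventricular tissue along would mix both settings.

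After the choice of libraries, sham and infarcted levels overlapped for Myl7, Sln and Mybphl, whereas Myl4 was higher in each infarcted library and ventricular light chains were lower. In CPM on the column total, Myl7 was 585.26 in Sham 1 and 359.67 in Sham 3, and 540.52, 439.46, 1268.7 and 918.29 in MI 2, MI 3, MI 4 and MI_ART 2, the order used for infarcted libraries throughout. Sham 3 was the lowest library inside the threshold and MI_ART 1, at 201.65, the highest outside it, followed by Sham 2 at 124.65 and MI_ART 3 at 2.29. All other levels are CPM on library sizes corrected with TMM factors (trimmed mean of M values). Myl4, the atrial essential light chain (chromosome 11, 104546017 to 104587215, from RefSeq on the GRCm38.p6 build as for all coordinates here), stood at 1233 and 1099 CPM in sham and 1403, 1417, 2898 and 1478 CPM in infarcted libraries. Sln, the small inhibitor of the calcium pump in atrial muscle, was at 394 and 403 against 287, 221, 527 and 334 CPM. Mybphl, an atrial myosin-binding protein, was at 199 and 164 against 174, 150.05, 345 and 226 CPM. MI 4 was the highest library for each of these 3 genes. In the 3 libraries left out, Sham 2, MI_ART 1 and MI_ART 3, Sln was at 96.8, 96.1 and 0.742 CPM. Over the 20 atrial myocyte markers the median log2 fold change was -0.12, described without a test because Myl7 set the choice.

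**Figure D1:**
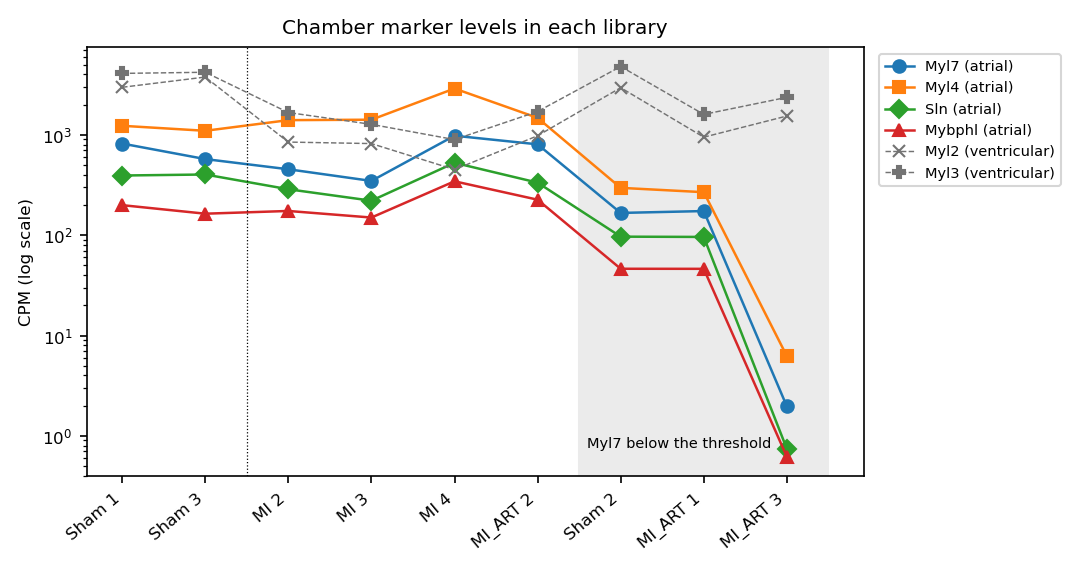
Levels of 4 atrial and 2 ventricular muscle genes in CPM on a log axis, 1 point per library, with the 3 libraries below the Myl7 threshold shaded. Within the unshaded libraries the atrial genes overlap between groups except Myl4, while Myl2 and Myl3 sit lower in each of the 4 infarcted libraries than in Sham 1 and Sham 3.

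Ventricular light chains were lower in every one of the 4 infarcted libraries. Myl2, the ventricular regulatory light chain, was at 2982 and 3771 CPM in sham and at 848, 819, 451 and 980.1 CPM in infarcted libraries (log2 fold change -2.12 ± 0.32 SE, edgeR adjusted p = 0.00667), with no overlap. Myl3, the ventricular essential light chain, fell as well, from 4156 ± 76.9 CPM (SD, n = 2) to 1388 ± 382 CPM (SD, n = 4). The ratio of Myl2 to Myl7 was 3.64 and 6.57 in sham and 1.87, 2.36, 0.46 and 1.22 in infarcted libraries. Among the libraries kept, only MI 4 held more Myl7 than Myl2. The ratio of Myl3 to Myl4 was 3.33 and 3.83 in sham and 1.19, 0.90, 0.31 and 1.16 in infarcted libraries. Of 12 ventricular myocyte markers, 6 fell and none rose (median log2 -1.11), and their summed level was 12770 to 14740 CPM in sham and 2558 to 5400 CPM in infarcted libraries. None of these markers was at 0 in a whole group. Of 10 markers of heart muscle in general, 4 fell and none rose (median log2 -0.88). The summed level of these 10 was 65860 to 67540 CPM in sham and 32420 to 41830 CPM in infarcted libraries. The libraries were thus chosen on an atrial gene, while transcripts of ventricular muscle and of heart muscle in general differed between groups. The part of this imbalance in each result below was not tested. In bulk tissue, fewer cells of a type and less RNA per cell cannot be told apart.

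Some libraries stood apart. Total counts of the 9 libraries lay between 68046341 and 83685313, where 3 counts correspond to 0.0321 to 0.059 CPM. MI 4 had the highest score on the second principal component, 121 against -48.1 to 31.0 in the other 8 libraries, and carried Bmp10, a growth factor of right atrial muscle, at 41.7 CPM against at most 0.201 CPM elsewhere. Sham 1 held airway secretory transcripts, with Scgb1a1 at 122.6 CPM against at most 0.0752 CPM in the others, while the alveolar markers Sftpc and Cldn18 were at 0 in all 6 libraries kept. Of 9 lung epithelial markers 3 were tested, of which 1 rose in infarcted libraries and none fell (median log2 2.32). The summed level of the 9 was 0.248 to 143.5 CPM in sham and 2.81 to 13.1 CPM in infarcted libraries. Mitochondrially encoded genes took 41.26% ± 2.66 of counts in sham (SD, n = 2) and 18.83% ± 4.58 in infarcted libraries (SD, n = 4). The difference of -22.43 percentage points had an exact two-sided permutation p of 0.06667, the smallest that 15 arrangements of 2 against 4 allow.

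Of 19666 genes tested across the 6 libraries by edgeR's quasi-likelihood test, 2098 were higher after infarction (10.7%) and 1099 lower (5.59%) at a Benjamini-Hochberg adjusted p under 0.05, in all 16.3%. The 2 sham libraries did not overlap the 4 infarcted ones for 9790 genes (49.8%), of which 5227 were higher (26.6%) and 4563 lower (23.2%). The median log2 fold change of all tested genes was 0.0624, and 65.6% of calls were higher. With total counts in place of TMM factors that median was 0.928, and 97.8% of calls were higher (7754 against 178 lower), so directions are relative to the typical gene. The spread rests on few libraries. Without Sham 1 the count was 268 higher and 37 lower, and without Sham 3 it was 159 and 22. Leaving out MI 2, MI 3 or MI 4 gave 1526 and 516, 1183 and 269, or 2993 and 2191, and without the artesunate library MI_ART 2 it was 2085 and 1139. Of the 162 called genes named here and in the closing observations outside the atrial markers, 24 stayed past the test under all 18 alternatives.

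**Figure D2:**
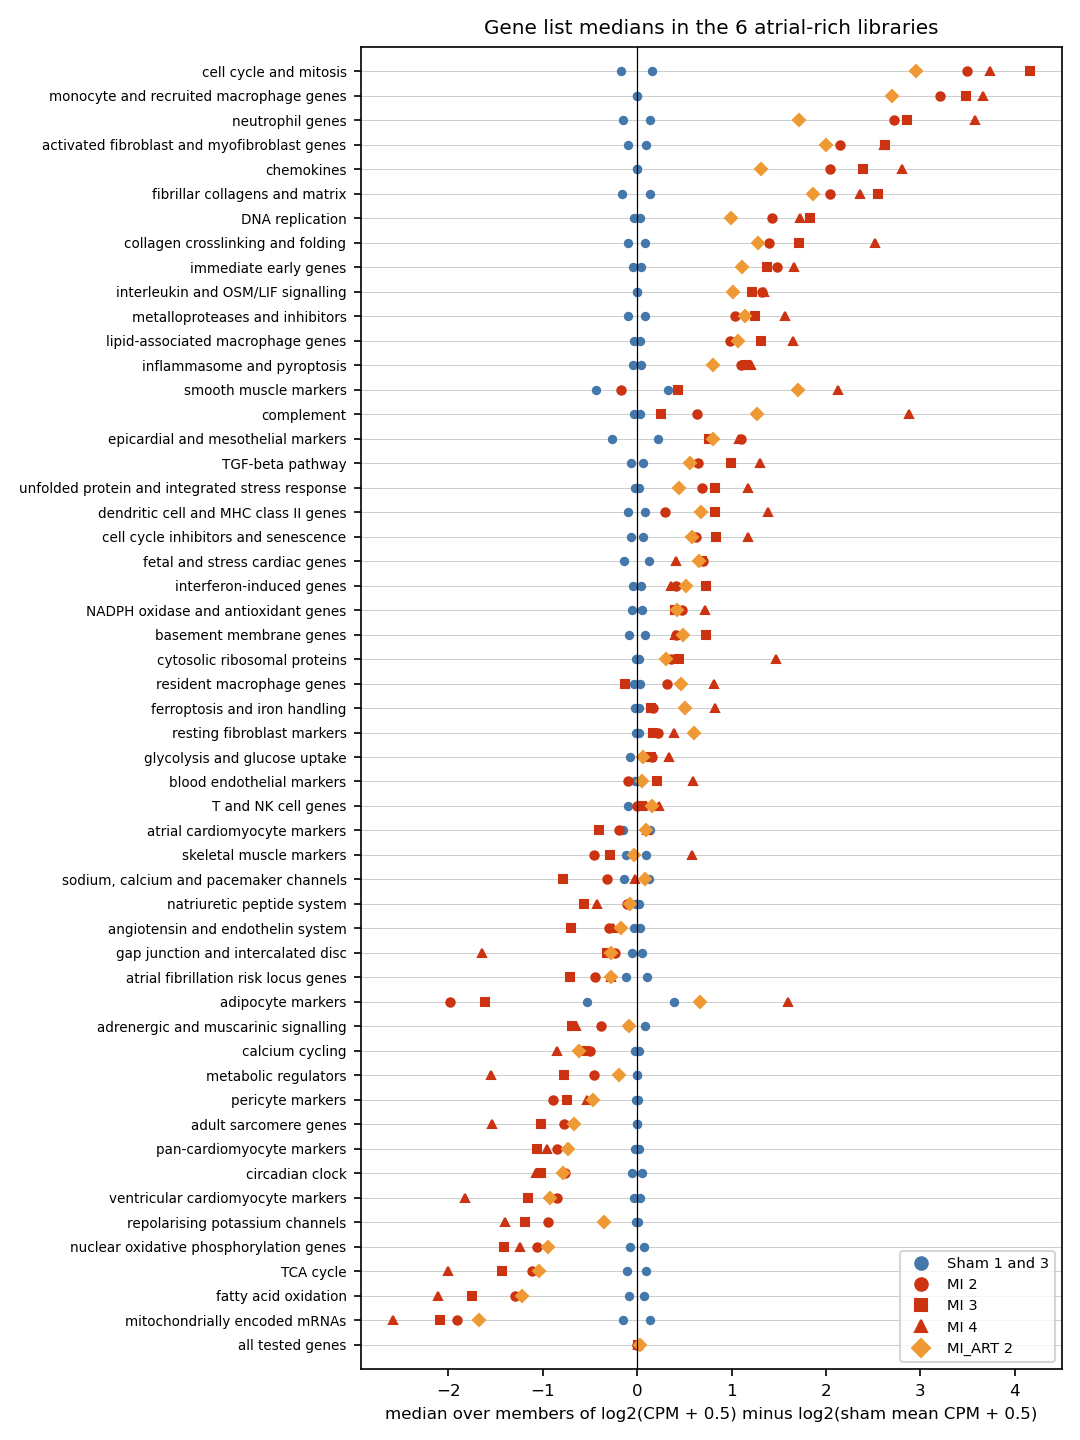
Median over the members of each gene list of log2(CPM + 0.5) minus log2 of the sham mean CPM + 0.5, for each of the 6 libraries (Sham 1 and 3 in blue, MI libraries in red, MI_ART 2 in orange). Cell cycle, monocyte and matrix lists lie to the right of 0 in all 4 infarcted libraries. Lists of oxidative phosphorylation, fatty acid oxidation and the TCA cycle lie to the left, and glycolysis genes slightly to the right (0.066 to 0.336). Atrial myocyte markers lie between -0.398 and 0.103 in the infarcted libraries, and the median of all tested genes lies near 0.

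Natriuretic peptide and strain genes of heart muscle were high in the infarcted libraries while several genes of the adult contractile apparatus were low. Nppa, the atrial natriuretic peptide (chromosome 4, 148000722 to 148002074), stood at 4861 and 3956 CPM in sham and 11570.3, 11489.8, 20428 and 9782 CPM in infarcted libraries (log2 fold change 1.60 ± 0.37 SE, given as a description because Nppa is an atrial marker). Every infarcted library exceeded both sham libraries, MI 4 by the widest margin. Nppb, the B-type peptide made by stretched muscle (chromosome 4, 147985786 to 147987205), rose from 85.6 and 83.7 CPM to 389, 455, 594 and 246 CPM (log2 fold change 2.31 ± 0.38 SE, edgeR adjusted p = 0.00898). Npr3, the receptor that clears natriuretic peptides, fell (log2 fold change -1.30 ± 0.32 SE, edgeR adjusted p = 0.0321), and Mme, the protease neprilysin that degrades them, fell from 14.9 ± 2.67 to 3.43 ± 2.72 CPM (SD, n = 2 and 4). Of the 9 natriuretic system genes outside the atrial markers, 1 rose and 2 fell (with them, median log2 -0.35, and 0.501 with total counts). Nmrk2, a nicotinamide riboside kinase induced in strained heart muscle, rose from 5.66 and 3.34 CPM to 212, 274, 316 and 112 CPM (log2 fold change 5.66 ± 0.57 SE, edgeR adjusted p = 0.00362). Uchl1, a ubiquitin hydrolase, and Myl9, a light chain of smooth muscle and other contractile cells, rose by log2 2.42 and 2.43. The Myl9 call was lost over all 9 libraries (log2 1.43, edgeR adjusted p = 0.146), where Sham 2, MI_ART 1 and MI_ART 3 were at 167, 70.4 and 64.8 CPM, and with a Myl7 threshold of 150 (edgeR adjusted p = 0.067). Of 24 fetal and stress genes of the heart outside the atrial markers, 7 rose and 2 fell (with them, median log2 0.84).

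Of 24 adult sarcomere genes, 8 fell and none rose, with a median log2 fold change of -0.92 and medians of -0.77, -1.02, -1.53 and -0.67 in the 4 infarcted libraries. Tnni3, cardiac troponin I (chromosome 7, 4518305 to 4522718), was at 3362 and 3871 CPM in sham and 1359, 1036, 1074 and 1548 CPM in infarcted libraries (log2 fold change -1.53 ± 0.25 SE, edgeR adjusted p = 0.00896), so the groups did not overlap. Tcap, the titin cap at the Z-disc, fell by 1.77 on the log2 scale, Myoz2, a calcineurin-binding Z-disc protein, by 1.39, and Csrp3, a stretch-sensing LIM protein, by 0.90. Myh6, the fast cardiac myosin heavy chain of atrium and adult mouse ventricle, was at 24214 and 20026 against 10439, 8211, 6611 and 13415 CPM (log2 fold change -1.19 ± 0.32 SE, edgeR adjusted p = 0.0404). Myh7, the slow heavy chain often raised in strained ventricle, did not pass (log2 fold change -0.19 ± 0.27 SE, edgeR adjusted p = 0.674), and its estimate was 0.66 with total counts. Fast skeletal isoforms went the other way. Tnnt3, fast skeletal troponin T, rose from 0.772 and 0.42 to 21.8, 33.2, 62.9 and 2.81 CPM, and Tnni2, fast skeletal troponin I, from 2.02 and 2.73 to 15.4, 22.3, 43.8 and 4.07 CPM, with MI_ART 2 far below the 3 vehicle libraries for both. Myl1, a skeletal essential light chain also made in embryonic heart, rose from 88.7 and 73.2 to 242, 225, 236 and 196 CPM (log2 fold change 1.47 ± 0.23 SE, edgeR adjusted p = 0.00759). Ckm, the muscle creatine kinase, fell 3.97-fold. Of the 8 skeletal muscle markers tested, Tnnt3 and Tnni2 rose and Ckm fell (median log2 0.17). Of the 17 called genes named in this and the preceding 2 accounts of muscle other than atrial markers, 1 and 1 stayed past the test without Sham 1 and without Sham 3, 13, 11, 16 and 17 without MI 2, MI 3, MI 4 and MI_ART 2, and 11 with total counts. Over all 9 libraries and at a Myl7 threshold of 150 Tnni2 and Myl1 also lost the call, limma-voom lost Tnnt3 and Tnni2, and without a filter Mme, Myh6 and Tnni2 did not pass.

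Among ion channel genes, most potassium channel genes that were called were lower, while a leukocyte and fibroblast channel and a regulatory subunit were higher. Of 21 potassium channel genes outside the atrial markers, 2 rose and 5 fell, and over all 25 there was a median log2 fold change of -0.89. Kcnj5, a subunit of the acetylcholine-activated potassium channel of atrial muscle, was at 103 and 71.1 CPM in sham and 35.3, 43.5, 32.6 and 48.99 CPM in infarcted libraries. Its partner Kcnj3 was at 39.4 and 38.1 against 16.7, 14.3, 2.78 and 28.9 CPM, lowest in MI 4, and Kcna5, the channel of the ultra-rapid atrial current, at 8.37 and 8.91 against 3.76, 5.71, 4.49 and 5.61 CPM. These 3 atrial markers had no overlap between groups and are given without a test, and the Kcna5 estimate changes sign with total counts (-0.82 to 0.048). Of all 20 atrial markers, 3 lay lower and 4 higher without overlap, against 23.2% and 26.6% of all tested genes. Kcnn3, a calcium-activated SK channel at a risk locus for atrial fibrillation, fell from 2.69 and 1.98 to 0.4, 0.334, 0.128 and 0.363 CPM (log2 fold change -2.93 ± 0.51 SE, edgeR adjusted p = 0.0105). Kcnn4, the intermediate-conductance channel of leukocytes and fibroblasts, rose from 0.552 and 1.03 to 7.66, 9.705, 16.2 and 4.81 CPM (log2 fold change 3.60 ± 0.59 SE, edgeR adjusted p = 0.00905), and Kcne4, a regulatory subunit, rose as well (log2 1.56). Of 23 sodium, calcium and pacemaker channel genes, 2 rose and 2 fell (median log2 -0.30), near the 16.3% of all tested genes that were called. Scn4b, the sodium channel beta-4 subunit, fell from 46.9 and 47.01 to 11.6, 6.46, 2.37 and 18.4 CPM, lowest in MI 4, and Scn10a, a sodium channel of nerve and conduction tissue, fell to 2.401 ± 0.954 CPM (SD, n = 4). Piezo1, a stretch-activated cation channel, rose from 22.2 and 18.3 to 48.2, 48.01, 70.1 and 38.4 CPM (log2 fold change 1.34 ± 0.29 SE, edgeR adjusted p = 0.021). The gene Cacna1c, which encodes the L-type channel pore, was at 149.95 and 109 against 102, 60.1, 19.1 and 135 CPM. It overlapped between groups and did not pass (edgeR adjusted p = 0.461), and its estimate was 0.098 with total counts.

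Among 28 calcium cycling genes, 1 rose and 6 fell, and the median log2 fold change was -0.47, or 0.354 with total counts. Pln, phospholamban, the brake on the calcium pump (chromosome 10, 53337686 to 53345999), was at 1464 and 2219.8 CPM in sham and 579, 379.9, 191 and 597 CPM in infarcted libraries (log2 fold change -2.08 ± 0.43 SE, edgeR adjusted p = 0.0186). Hrc, which like Pln is also among the ventricular markers, the calcium-binding protein of the reticulum lumen, fell from 826 and 814 to 183, 127, 81.1 and 261 CPM (log2 fold change -2.33 ± 0.41 SE, edgeR adjusted p = 0.0105), and Trdn, triadin of the release complex, fell from 415 ± 80.9 to 140.3 ± 47.9 CPM (SD, n = 2 and 4). S100a1, a positive regulator of the pump and the release channel, fell (log2 -0.92), and the one member that rose was Fkbp1b, calstabin 2, which steadies the release channel (1.25 ± 0.365 to 3.05 ± 0.326 CPM). The calcium pump itself, Atp2a2, was at 12037 and 11492 against 4743, 3218, 1343 and 6863 CPM and did not pass (log2 fold change -1.54 ± 0.53 SE, edgeR adjusted p = 0.0824). Nor did Ryr2, the release channel, at 1212 and 1240.3 against 644, 492, 163 and 728 CPM (log2 fold change -1.27 ± 0.49 SE, edgeR adjusted p = 0.116). In both genes the groups did not overlap, and MI 4 was the lowest library by a wide margin. Of 19 gap junction and intercalated disc genes, Dsg2, desmoglein 2, was the one called, lower in infarcted libraries (126 ± 12.7 to 42.8 ± 19.4 CPM). Gja1, connexin 43, was at 644 and 706 against 488, 418, 167 and 524 CPM and did not pass (log2 fold change -0.76 ± 0.41 SE, edgeR adjusted p = 0.243), with an estimate of 0.09 with total counts. Gja5, the atrial connexin 40, was at 39.8 and 25.4 against 34.4, 32.2, 36.1 and 36.5 CPM, inside the sham range in each infarcted library. Of 28 genes at risk loci for atrial fibrillation outside the atrial markers 1 rose, Synpo2l, a Z-disc actin organiser (94.8 and 73.1 to 152, 153, 148 and 149 CPM), and 4 fell (with them, median log2 -0.34, and 0.515 with total counts). The share of risk locus genes called was near the 16.3% of all tested genes. No call among the 13 called channel, calcium and disc genes named outside the atrial markers stayed without Sham 1 (0) or Sham 3 (0), 7, 4, 12 and 11 stayed without MI 2, MI 3, MI 4 and MI_ART 2, and 8 with total counts. Scn4b, Scn10a, Dsg2 and Fkbp1b did not pass without a filter, Dsg2 and Fkbp1b not with limma-voom, Scn10a not with mitochondrially encoded genes left out, and Kcnn3 not over all 9 libraries with a replicate block.

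**Figure D3:**
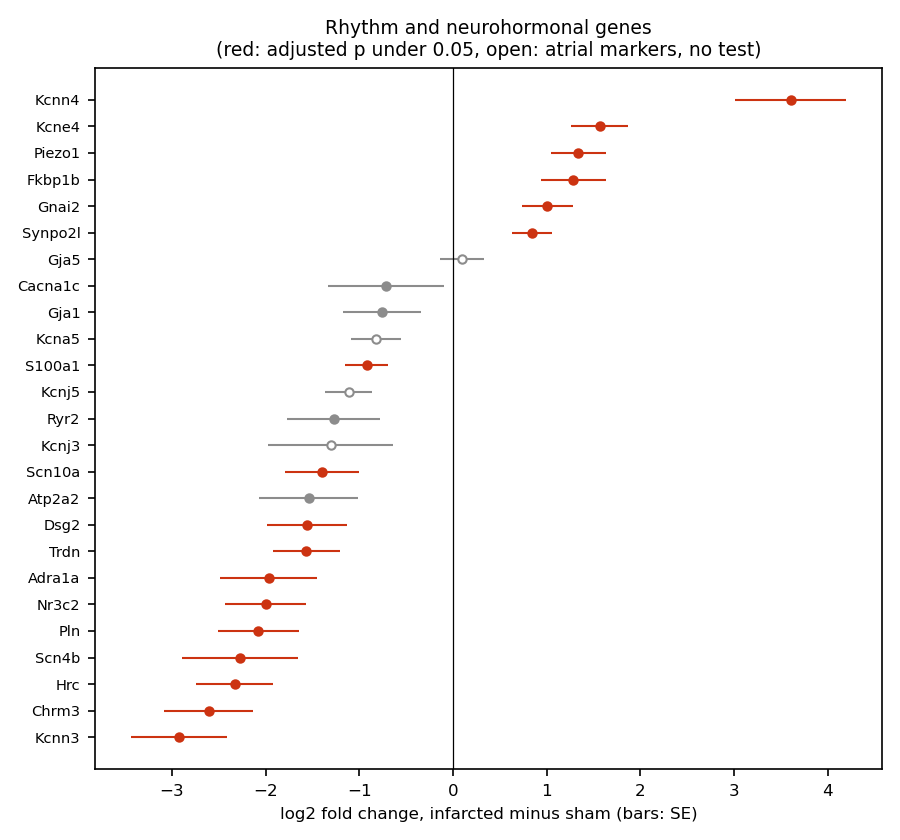
Log2 fold change of infarcted against sham libraries with its SE for genes of channels, calcium handling, junctions and neurohormonal receptors, 25 in all. Red points passed an adjusted p of 0.05, filled grey points did not, and open points are atrial markers shown without a test, so that Kcnn4 marks the highest estimate and Kcnn3 the lowest.

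Among neurohormonal genes, 3 of 22 adrenergic and muscarinic and 2 of 13 angiotensin and endothelin genes were called, near the 16.3% of all tested genes. Gnai2, an inhibitory G protein, rose (111 ± 18.4 to 222 ± 47.1 CPM), and Chrm3 and Adra1a, a muscarinic and an alpha-1 adrenergic receptor, fell (median log2 of the list -0.27). Chrm3 was at 1.84 and 1.45 CPM in sham and 0.331, 0.301, 0.278 and 0.163 CPM in infarcted libraries (log2 fold change -2.61 ± 0.47 SE, edgeR adjusted p = 0.0118), and Adra1a at 11.8 and 11.1 against 3.82, 1.79, 1.18 and 4.91 CPM. Of the 13 angiotensin and endothelin genes, 2 fell, Nr3c2 among them, and none rose (median log2 -0.45, and 0.403 with total counts). Nr3c2, the mineralocorticoid receptor, fell from 30.4 and 35.4 to 9.09, 7.65, 3.41 and 12.8 CPM (log2 fold change -2.00 ± 0.43 SE, edgeR adjusted p = 0.0206). Of these 4 calls, 0 and 0 stayed without Sham 1 and Sham 3, 2, 1, 4 and 4 without MI 2, MI 3, MI 4 and MI_ART 2, and 2 with total counts. The Chrm3 call was lost over all 9 libraries (log2 -1.07, edgeR adjusted p = 0.281), where Sham 2, MI_ART 1 and MI_ART 3 were at 0.452, 1.68 and 0.804 CPM, and at a Myl7 threshold of 150 (edgeR adjusted p = 0.209), and Adra1a and Gnai2 did not pass without a filter.

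Matrix genes rose together. Of 24 genes of fibrillar collagen and matrix, 21 rose and none fell, with a median log2 fold change of 2.40 and medians of 2.04, 2.55, 2.36 and 1.86 in the 4 infarcted libraries. Col1a1, collagen I (chromosome 11, 94936224 to 94953042), was at 45.4 and 31.5 CPM in sham and 647, 752, 1227 and 478 CPM in infarcted libraries (log2 fold change 4.33 ± 0.49 SE, edgeR adjusted p = 0.00362). Col3a1, collagen III, was at 441 and 308 against 3706, 4277, 4264 and 3382 CPM (log2 fold change 3.38 ± 0.31 SE, edgeR adjusted p = 0.00362), and its 4 infarcted libraries lay close together. Col12a1, a fibril-associated collagen, rose 22.04-fold and Fbn1, the microfibril protein fibrillin 1, rose 5.58-fold. Eln, elastin, the stretchable fibre protein of vessel and atrial wall, rose from 34.5 and 27.8 to 389, 481, 864 and 219 CPM (log2 fold change 3.97 ± 0.59 SE, edgeR adjusted p = 0.00658), with MI 4 highest and MI_ART 2 lowest. Col4a1, a basement membrane collagen, rose 3.51-fold, one of 3 called among 15 genes of that membrane (median log2 0.45). Of 16 genes that crosslink or fold collagen, 11 rose and none fell (median log2 1.83). Lox, lysyl oxidase, rose from 6.22 and 6.18 to 208, 262, 219.8 and 111 CPM (log2 fold change 5.01 ± 0.44 SE, edgeR adjusted p = 0.00362), Loxl2, its relative, 6.63-fold, and P4ha3, a prolyl hydroxylase subunit, from 0.179 ± 0.0973 to 10.4 ± 6.39 CPM.

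Of 22 metalloproteases and inhibitors, 12 rose and 1 fell (median log2 1.96). Mmp14, a membrane collagenase, rose 7.44-fold and Mmp12, the macrophage elastase, 29.2-fold. Timp1, a protease inhibitor induced in injury (chromosome X, 20870166 to 20874737), rose from 3.42 and 1.66 to 113, 146, 331 and 102 CPM (log2 fold change 6.09 ± 0.73 SE, edgeR adjusted p = 0.00392), highest in MI 4. Timp4, the inhibitor most tied to heart muscle, was the one that fell, from 21.6 and 40.01 to 3.84, 2.68, 1.53 and 4.95 CPM (log2 fold change -3.25 ± 0.45 SE, edgeR adjusted p = 0.00551). Of 28 genes of the TGF-beta pathway, 12 rose and none fell (median log2 1.03). Ltbp2, a latent TGF-beta binding protein, rose 11.04-fold, Fstl1, a secreted follistatin relative, 5.59-fold, and Ccn2, connective tissue growth factor, 4.29-fold. Gdf15, a stress-induced member of the TGF-beta family, rose from 0.166 and 0.534 to 4.64, 5.95, 14.5 and 5.61 CPM. All 17 matrix, protease and TGF-beta genes named stayed past the test when any one infarcted library was left out (17, 17, 17 and 17 without MI 2, MI 3, MI 4 and MI_ART 2) and with total counts (17), whereas 12 did without Sham 1 and 4 without Sham 3. Eln did not pass over all 9 libraries with a replicate block (edgeR adjusted p = 0.0948), nor P4ha3 with limma-voom.

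Genes of activated fibroblasts rose and 4 of 8 pericyte markers fell, while smooth muscle markers varied between libraries. Of 16 genes of activated fibroblasts and myofibroblasts, 12 rose and none fell (median log2 2.55). Tnc, tenascin C, was at 1.6 and 0.648 CPM in sham and 169, 217, 123 and 170.5 CPM in infarcted libraries (log2 fold change 7.24 ± 0.54 SE, edgeR adjusted p = 0.00335). Cthrc1, a secreted protein of injury-activated fibroblasts (chromosome 15, 39076932 to 39087121), was at 0.754 and 0.248 against 79.9, 101, 117 and 45.2 CPM (log2 fold change 7.41 ± 0.69 SE, edgeR adjusted p = 0.00362), lowest in MI_ART 2 among the infarcted libraries. Postn, periostin, rose 11.02-fold, Fn1, fibronectin, 22.5-fold, and Sfrp2, a secreted Wnt modulator, 10.2-fold. Resting fibroblast markers went both ways. Of 14, 4 were called higher and none lower (median log2 0.41), among them Mfap5, a microfibril protein (log2 2.10), Cd248, endosialin (log2 2.11), and Tcf21, a fibroblast transcription factor (log2 1.17). Without overlap between groups, 6 lay higher and 5 lower, against 26.6% and 23.2% of all tested genes. Over all 9 libraries 6 were called higher and 4 lower. Their summed level was 3812 to 3874 CPM in sham and 2223 to 3495 CPM in infarcted libraries. Of 11 epicardial and mesothelial markers, the cells of the outer surface of the heart, 4 rose and none fell (median log2 1.05). Aldh1a2, the retinoic acid synthase of activated epicardium, rose from 14.5 and 11.2 to 58.3, 58.9, 51.4 and 55.7 CPM (log2 fold change 2.12 ± 0.23 SE, edgeR adjusted p = 0.00362), and Upk1b, a mesothelial uroplakin, rose 3.25-fold.

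Of 8 pericyte markers, 4 fell and none rose (median log2 -0.71, and 0.156 with total counts). Without overlap between groups, however, 3 of them lay higher and 4 lower, against 26.6% and 23.2% of all tested genes. Over all 9 libraries 1 pericyte marker was called higher and 4 lower. Kcnj8 and Abcc9, which form the ATP-sensitive potassium channel of pericytes, fell from 42.4 ± 0.301 to 16.6 ± 4.72 CPM and from 279.9 ± 38.2 to 66.4 ± 32.1 CPM (SD, n = 2 and 4). Rgs5, a regulator of G protein signalling in pericytes, fell from 861 and 942 to 379.6, 361, 177 and 486 CPM (log2 fold change -1.36 ± 0.36 SE, edgeR adjusted p = 0.0388). Of 14 blood endothelial markers, Cd36, the fatty acid carrier of capillary endothelium and muscle, was the one called, lower in infarcted libraries (1787 ± 323 to 582 ± 235 CPM), and the list median was 0.23. None of 10 smooth muscle markers passed by edgeR, though 4 had an unadjusted p under 0.05 and DESeq2 called 4 higher (median log2 1.28), and the medians in the 4 infarcted libraries were -0.17, 0.44, 2.13 and 1.70. With a replicate block over all 9 libraries that list's median was -0.242. Adipocyte markers, whose presence would mark attached fat, had medians of -1.98, -1.61, 1.60 and 0.67, with Cfd at 61.6 and 11.96 CPM in sham and 5.72, 2.54, 292 and 108 CPM in infarcted libraries. Among the 14 called stromal and vessel genes named, 6 stayed without Sham 1, 4 without Sham 3, 11, 9, 14 and 14 without MI 2, MI 3, MI 4 and MI_ART 2, and 10 with total counts. Tcf21, Rgs5 and Cd36 did not pass without a filter, and Tcf21 not with limma-voom, upper-quartile factors or a Myl7 threshold of 150.

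Genes of recruited myeloid cells rose throughout. All 15 genes of monocytes and recruited macrophages rose (median log2 3.63), with a summed level of 115 to 117 CPM in sham and 571.5 to 1180 CPM in infarcted libraries. Ccr2, the receptor that brings monocytes into tissue (chromosome 9, 124101918 to 124109140), was at 4.12 and 6.56 CPM in sham and 71.2, 69.5, 69.2 and 54.9 CPM in infarcted libraries (log2 fold change 3.63 ± 0.30 SE, edgeR adjusted p = 0.00362). Itgam, the myeloid integrin CD11b, rose 14-fold and Cd68, a macrophage lysosomal protein, 12.2-fold. Of 13 resident macrophage genes, 4 rose and none fell (median log2 1.03), among them Igf1, a growth factor also made by fibroblasts (log2 1.33), and Mrc1, the mannose receptor CD206 (log2 1.25). Of 13 genes of lipid-laden macrophages, 8 rose and none fell (median log2 1.42). Spp1, osteopontin, which such macrophages secrete in scar (chromosome 5, 104435111 to 104441053), was at 2.59 and 2.27 CPM in sham and 428, 758, 605 and 309 CPM in infarcted libraries (log2 fold change 7.75 ± 0.55 SE, edgeR adjusted p = 0.00275). Gpnmb, a lysosomal glycoprotein, rose 19.4-fold and Trem2, a lipid-sensing receptor, 20.7-fold.

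Of 11 neutrophil genes tested, 9 rose and 1 fell (median log2 5.00). Mmp8, the neutrophil collagenase, had no counts in Sham 1 or Sham 3 and was at 2.29, 2.701, 1.46 and 1.14 CPM in infarcted libraries, at least 33.8-fold higher when the sham mean is set at 3 counts per library. Csf3r, the G-CSF receptor, rose 30.3-fold, and S100a9, a subunit of calprotectin, rose from 0.221 and 0.229 to 11.5, 10.8, 33.3 and 2.62 CPM (log2 fold change 6.01 ± 1.12 SE, edgeR adjusted p = 0.0129), lowest in MI_ART 2. The neutrophil gene called lower, Ltf, lactoferrin, was at 44.8 CPM in Sham 1 and at 0 in Sham 3, and without Sham 1 its estimate reversed to 5.43 (edgeR adjusted p = 0.523). Ltf is also made by airway glands, and Sham 1 is the library with airway secretory transcripts. Of 17 T and natural killer cell genes none rose and Ctla4, an inhibitory receptor of T cells, fell from 3.03 and 3.55 to 0.548, 0.473, 0.256 and 0.802 CPM (log2 fold change -2.66 ± 0.47 SE, edgeR adjusted p = 0.0105), while the list's median was 0.31, and -0.58 when 1 CPM in 2 libraries was required. Of 14 dendritic cell and MHC class II genes, 6 rose and none fell (median log2 1.23), with Batf3, a dendritic cell transcription factor, up from 0.0845 ± 0.0154 to 1.44 ± 0.476 CPM and H2-DMa, a peptide loading subunit, up 2.82-fold. Without Sham 1 or Sham 3, 6 and 7 of the 15 leukocyte calls named stayed, against 13, 12, 14 and 14 without MI 2, MI 3, MI 4 and MI_ART 2 and 15 with total counts. With limma-voom S100a9, Ltf and Batf3 did not pass, nor Ltf with DESeq2.

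Many signals that recruit and activate leukocytes rose. Of 25 chemokines 17 rose and 2 fell (median log2 3.31). Ccl2, the main monocyte attractant, was at 2.26 and 1.51 CPM in sham and 24.2, 42.7, 53.2 and 16.6 CPM in infarcted libraries (log2 fold change 4.18 ± 0.58 SE, edgeR adjusted p = 0.00547), its neighbour Ccl7 rose 15.1-fold and Ccl9 15.8-fold. The chemokines that fell were Ccl11, the eosinophil attractant eotaxin (4.98 and 4.48 to 0.822, 0.828, 1.41 and 1.87 CPM), and Cxcl9, a T cell attractant induced by interferon gamma (8.37 and 14.4 to 4.09, 3.85, 3.99 and 6.49 CPM). Of 23 interleukin and OSM/LIF signalling genes 16 rose and none fell (median log2 1.66). Osm, the macrophage cytokine oncostatin M, rose from 0.0736 and 0.153 to 1.895, 1.83, 1.66 and 1.75 CPM (log2 fold change 3.96 ± 0.52 SE, edgeR adjusted p = 0.00481), with little spread among infarcted libraries. Il1b, interleukin 1 beta, rose 22.4-fold, its antagonist Il1rn 42.8-fold, and Socs3, a feedback inhibitor of STAT3, 8.66-fold. Of 18 inflammasome and pyroptosis genes, 10 rose and none fell (median log2 1.24), including Nlrp3, the inflammasome sensor, from 0.57 and 0.61 to 4.76, 4.37, 3.54 and 1.69 CPM (log2 fold change 2.60 ± 0.51 SE, edgeR adjusted p = 0.0149), and Casp8, an initiator caspase (3.29-fold). Of 20 interferon-induced genes, 7 rose and none fell (median log2 0.49), among them Mx1, which RefSeq lists as a transcribed pseudogene (5.52-fold), and the nucleic acid sensor Zbp1 (4.13-fold). Of 19 complement genes, 8 rose and none fell (median log2 1.47), among them C3ar1, the C3a receptor (9.02-fold), and Cfb, factor B (7.99-fold). Cfi, the complement-cleaving factor I, had no sham counts and was at 1.99, 1.34, 4.07 and 1.83 CPM in infarcted libraries, at least 41.1-fold higher on the same bound of 3 counts per library. Of the 16 calls on signals, 4 and 3 stayed without Sham 1 and Sham 3, 15, 14, 16 and 16 without MI 2, MI 3, MI 4 and MI_ART 2, and 14 with total counts. Il1rn and Nlrp3 did not pass with limma-voom, nor Cxcl9 without a filter.

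**Figure D4:**
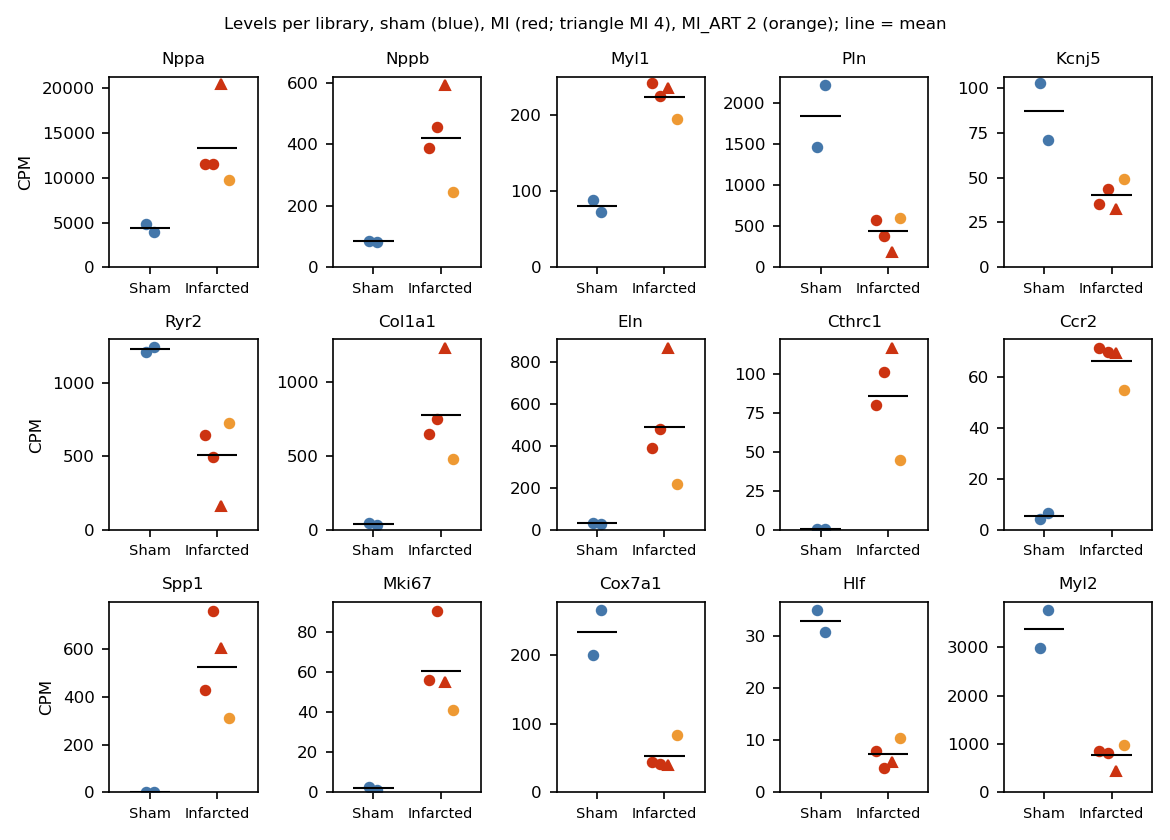
CPM of 15 genes in Sham 1 and Sham 3 (blue) and in the infarcted libraries MI 2, MI 3 and MI 4 (red, MI 4 as a triangle) and MI_ART 2 (orange), with a line at each group mean and axes from 0. In each panel all infarcted points lie on one side of both sham points, and MI 4 is the infarcted point farthest from sham for Nppa, Nppb, Pln, Kcnj5, Ryr2, Col1a1, Eln, Cthrc1, Cox7a1 and Myl2.

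Proliferation genes rose nearly throughout. Of 30 cell cycle and mitosis genes, 28 rose and none fell, with a median log2 fold change of 4.58 and medians of 3.49, 4.16, 3.73 and 2.95 in the 4 infarcted libraries. Mki67, the proliferation antigen (chromosome 7, 135689784 to 135716450), was at 2.704 and 1.41 CPM in sham and 55.8, 90.4, 55.1 and 40.9 CPM in infarcted libraries (log2 fold change 4.88 ± 0.48 SE, edgeR adjusted p = 0.00362), highest in MI 3 and lowest in MI_ART 2. Ccnb1, the mitotic cyclin B1, rose from 0.386 and 0.172 to 14.6, 21.7, 21.5 and 12.2 CPM, and Cenpe, a kinetochore motor, 22.8-fold. Of 30 DNA replication genes, 22 rose and none fell (median log2 1.69), such as Mcm6, a helicase subunit (5.52-fold), and Tk1, thymidine kinase (20.5-fold). Of 16 cell cycle inhibitor and senescence genes, 4 rose and 2 fell. Cdkn1a, p21, rose from 5.48 and 7.59 to 38.4, 37.3, 68.6 and 32.6 CPM (log2 fold change 2.76 ± 0.39 SE, edgeR adjusted p = 0.00566), whereas Cdkn1c, p57, and Ccng1, cyclin G1, fell by 1.28 and 1.43 on the log2 scale. Of these 8 genes, 3 and 3 stayed past the test without Sham 1 and Sham 3, 7, 6, 8 and 7 without MI 2, MI 3, MI 4 and MI_ART 2, and 6 with total counts.

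Genes of mitochondrial energy metabolism fell together. Of 45 nuclear genes of oxidative phosphorylation, 41 fell and none rose (median log2 -1.14), and all 13 mitochondrially encoded mRNAs fell (median log2 -2.01). Cox7a1, the muscle isoform of a cytochrome oxidase subunit, was at 199.8 and 265 CPM in sham and 44.6, 41.9, 39.8 and 82.9 CPM in infarcted libraries (log2 fold change -2.15 ± 0.33 SE, edgeR adjusted p = 0.0072), and Ndufa5, a complex I subunit, at 177 and 224 against 67.5, 63.6, 63.98 and 92.5 CPM. In both genes MI_ART 2 was the highest infarcted library. The mitochondrial complex I genes mt-Nd6 and mt-Nd5 fell 3.96-fold and 4.85-fold. Of 30 fatty acid oxidation genes, 24 fell and none rose (median log2 -1.52), among them Hadha, a subunit of the trifunctional protein (1728 ± 229 to 518 ± 134 CPM), and Acaa2, the mitochondrial thiolase (1270.1 ± 177 to 365 ± 88.96 CPM). Of 21 TCA cycle genes, 18 fell and none rose (median log2 -1.29), with Suclg1, a succinyl-CoA ligase subunit, down by 1.29 on the log2 scale. These lists stood beside the lower markers of ventricular and general heart muscle and the lower mitochondrial share of counts given above. The part of each was not tested.

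Glycolysis genes went both ways, 6 of 26 up and 4 down (median log2 0.24). Hk3, a hexokinase of leukocytes, rose from 1.31 and 1.26 to 15.3, 17.7, 27.6 and 10.5 CPM (log2 fold change 3.79 ± 0.46 SE, edgeR adjusted p = 0.00397) and Slc2a1, the widespread glucose carrier GLUT1, rose 3.42-fold. Slc2a4, the insulin-responsive carrier GLUT4, and Eno3, muscle enolase, fell 2.301-fold and 2.25-fold. Of 16 metabolic regulators, 4 fell and none rose (median log2 -0.56), such as Tfam, the mitochondrial transcription factor (52.8 and 66.98 to 33.7, 34.3, 23.2 and 33 CPM), Klf15, a metabolic zinc finger factor (2.67-fold), and Perm1, a muscle regulator of oxidative genes (2.598-fold). Of 19 clock genes, 8 fell and none rose (median log2 -0.95). Hlf, a clock output factor, was at 35.1 and 30.8 CPM in sham and 7.97, 4.79, 5.93 and 10.5 CPM in infarcted libraries (log2 fold change -2.17 ± 0.32 SE, edgeR adjusted p = 0.0061). Its relatives Dbp and Tef fell 2.61-fold and 2.03-fold, and Per3, a period gene, fell 2.56-fold. The hour of harvest is not given, so the clock genes and the time of day cannot be told apart. Of the 18 metabolic and clock calls named, 2 and 0 stayed without Sham 1 and Sham 3, 13, 12, 18 and 17 without MI 2, MI 3, MI 4 and MI_ART 2, and 8 with total counts. Perm1 and Klf15 did not pass without a filter, and Perm1 not with limma-voom or with mitochondrially encoded genes left out.

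Redox and stress genes went both ways. Of 24 NADPH oxidase and antioxidant genes, 8 rose and 4 fell (median log2 0.73). Hmox1, haem oxygenase 1 (chromosome 8, 75093618 to 75100593), was at 10.4 and 10.9 CPM in sham and 232, 289, 373 and 242 CPM in infarcted libraries (log2 fold change 4.74 ± 0.33 SE, edgeR adjusted p = 0.00275), and Ncf1, a subunit of the phagocyte oxidase, rose 11.3-fold. The mitochondrial and peroxisomal enzymes Sod2, Prdx3 and Cat, which remove superoxide and peroxide, fell 2.68-fold, 2.58-fold and 2.47-fold. Of 22 ferroptosis and iron handling genes, 7 rose and 1 fell (median log2 0.43). Slc7a11, the cystine importer, rose from 0.11 and 0.0572 to 1.67, 2.45, 1.96 and 0.877 CPM (log2 fold change 4.35 ± 0.68 SE, edgeR adjusted p = 0.00758) and Ptgs2, cyclooxygenase 2, 4.46-fold. Alox5, 5-lipoxygenase, was the member that fell, from 15.8 and 15.6 to 8.11, 9.33, 8.27 and 8.99 CPM (log2 fold change -0.86 ± 0.21 SE, edgeR adjusted p = 0.0297), and its estimate was 0.007 with total counts. Gpx4, the lipid peroxide reductase that guards against ferroptosis, was at 396 and 443 against 286, 245, 426 and 305 CPM and did not pass (log2 fold change -0.41 ± 0.27 SE, edgeR adjusted p = 0.325), with an estimate of 0.47 with total counts. Of 23 genes of the unfolded protein and integrated stress responses, 10 rose and 1 fell (median log2 0.78), with Atf3, a stress transcription factor, up 6.68-fold, Mthfd2, a mitochondrial folate enzyme, up 5.33-fold, and Herpud1, a reticulum degradation factor, down 2.51-fold. Of 21 immediate early genes, 15 rose and none fell (median log2 1.81). Fos rose from 1.104 and 0.153 to 18.1, 11.4, 9.92 and 30.8 CPM, Egr2 22.8-fold and Junb 5.81-fold, all factors switched on within minutes of a stimulus. Of 32 cytosolic ribosomal protein genes, Rpl3 was the one called (172 and 153 to 407, 473, 809 and 365 CPM), and the list medians were 0.36, 0.45, 1.47 and 0.31 in the infarcted libraries, MI 4 far above the others. All 32 had a positive estimate, and 27 lay higher without overlap between groups, against 26.6% of all tested genes. Over all 9 libraries 7 of the 32 were called higher. Of the 15 calls in this account, 2 and 1 stayed without Sham 1 and Sham 3, 13, 10, 15 and 15 without MI 2, MI 3, MI 4 and MI_ART 2, and 10 with total counts. With limma-voom Slc7a11 did not pass.

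Some of the widest differences were in genes nearly absent from the sham libraries. Sprr1a, a cornified envelope protein induced in stressed heart muscle and nerve (chromosome 3, 92483954 to 92485881), had 2 counts in the sham libraries, 0.0368 and 0 CPM, and was at 95.4, 202, 392 and 124 CPM in infarcted libraries (edgeR adjusted p = 0.00362). Cd5l, an apoptosis inhibitor secreted by macrophages, Marco, a scavenger receptor, F7, coagulation factor VII, and Cemip, a hyaluronan-degrading protein, had no sham counts. Set against 3 counts per sham library, they were at least 273-fold higher, at least 183-fold higher, at least 132-fold higher and at least 126-fold higher. In all, 199 genes called higher had no sham counts. Saa3, an acute phase protein, rose from 0.0736 and 0 to 122, 70.9, 85.8 and 18.05 CPM and Arg1, arginase 1 of repair macrophages, from 0.405 and 0 to 335, 161, 114 and 33.4 CPM, lowest in MI_ART 2 for both. Among genes that fell, Inmt, an amine methyltransferase, was at 33.8 and 32.8 against 0.422, 0.312, 1.85 and 6.28 CPM, Cngb3, a cyclic nucleotide-gated channel subunit, at 7.72 and 14.1 against 0.936, 0.689, 0.139 and 1.68 CPM (log2 fold change -3.66 ± 0.73 SE, edgeR adjusted p = 0.0156), Kcnv2, a silent potassium channel subunit, at 12.8 and 14.9 against 1.64, 0.43, 0.395 and 2.81 CPM, and Lrtm1, a muscle leucine-rich repeat protein, at 367 and 389 against 73.5, 34.5, 9.28 and 73.3 CPM. Wfdc2, an epithelial protease inhibitor, was at 9.803 and 0.687 CPM in Sham 1 and Sham 3, and at 0, 0, 0.406 and 0.0752 CPM in infarcted libraries, and its lower call was lost without Sham 1, the library with airway transcripts (log2 -2.49, edgeR adjusted p = 0.5), and without Sham 3 (edgeR adjusted p = 0.102). Of the 13 genes with wide differences, Fam177a (below) included, 6 and 4 stayed without Sham 1 and Sham 3, 11, 9, 12 and 12 without MI 2, MI 3, MI 4 and MI_ART 2, and 13 with total counts. With limma-voom Cd5l, Marco, F7, Saa3, Arg1 and Wfdc2 did not pass, without a filter Inmt and Wfdc2 did not, and Wfdc2 did not with DESeq2.

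Whether these differences are particular to the libraries kept was tested by the interaction of infarction with the Myl7 choice over all 9 libraries. Of 22019 genes, 1 was higher (0.00454%) and 0 lower (0%) in the atrial-rich libraries by edgeR, 776 (3.52%) had an unadjusted p under 0.05, and DESeq2 called 18 higher and 20 lower. The infarcted libraries left out are both MI_ART, so the choice and artesunate cannot be told apart there, and the other side of this test holds 1 sham library. The gene called, 4933427D14Rik, a transcript known by its clone name and chosen here after its values were seen, was at 0.166 and 0.21 CPM in Sham 1 and Sham 3, at 7.84, 8.18, 6.13 and 6.96 CPM in the infarcted libraries kept, and at 5.29, 8.09 and 7.498 CPM in Sham 2, MI_ART 1 and MI_ART 3 (interaction log2 4.71 ± 0.43 SE, edgeR adjusted p = 0.0366). Sham 2 thus sat with the infarcted libraries for this gene, and no gene passed in either direction without Sham 1, Sham 3, MI 2, MI 3 or MI_ART 2 in turn. Without MI 4, 5 genes were higher and 3 lower, and without MI_ART 1 it was 3 and 1. Ifit2, an interferon-induced antiviral gene, had the next smallest p (25.4 and 27.8 against 29.3, 32.2, 17.8 and 27.1 CPM here, and 1.16, 29.9 and 43.4 CPM in the libraries left out, edgeR adjusted p = 0.0841), and Chmp3, a membrane-scission subunit, the third (edgeR adjusted p = 0.115). Mapk1ip1, a kinase-interacting protein, and Thsd4, a microfibril protein, did not pass either (edgeR adjusted p = 0.215 and 0.375). Eln, whose level was 71.2, 53.5 and 47.8 CPM in the libraries left out, did not pass (interaction log2 4.46 ± 0.78 SE, edgeR adjusted p = 0.421).

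The same contrast over all 9 libraries, 3 sham against 6 infarcted, called 3615 genes higher (18.7%) and 2700 lower (14%) of 19326. It shares its libraries with the restricted comparison, so values are set side by side only. Nppa had a log2 fold change of 1.60 ± 0.37 SE in the libraries kept and 1.51 ± 0.79 SE over all 9, where the libraries left out ran at 1172, 2321 and 1298 CPM in Sham 2, MI_ART 1 and MI_ART 3. Myl1 was at 1.47 ± 0.23 SE here and 1.39 ± 0.80 SE over all 9 (edgeR adjusted p = 0.00759 and 0.209). Both estimates moved by less than their errors, which were wider over all 9. Uts2b, a urotensin-like vasoactive peptide, was at 1.05 and 1.95 CPM in sham, 13.6, 9.43, 7.82 and 7.12 CPM in the infarcted libraries kept and 0.236, 0.632 and 0 CPM in those left out (edgeR adjusted p = 0.0081 here, 0.176 over all 9). Galnt16, a glycosyltransferase, rose here from 4.08 and 3.85 to 15, 14.6, 21.1 and 14.5 CPM, with an edgeR adjusted p of 0.0654 over all 9.

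Other genes called in the libraries kept crossed the groups once Sham 2, MI_ART 1 and MI_ART 3 were added. Some genes in this and the preceding account were chosen because their call differed between the libraries kept and all 9. For them the difference in call is not a result. Gemin4, a subunit of the spliceosome assembly complex (chromosome 11, 76210571 to 76217572), was at 0.0552 and 0.0572 CPM in Sham 1 and Sham 3 and 8.95, 9.31, 8.18 and 8.48 CPM in the infarcted libraries (log2 fold change 7.24 ± 0.38 SE, edgeR adjusted p = 0.0011), but at 6.45, 9.36 and 0 CPM in those left out. Fam177a (chromosome 12, 55124435 to 55142104), of unassigned function, was at 9.27 and 11.2 CPM in Sham 1 and Sham 3 and had no counts in the 4 infarcted libraries, at least 300.3-fold lower against 3 counts per library. In the libraries left out it was at 0, 1.67 and 8.82 CPM, so an infarcted library held a sham-like level. Chmp3 was at 24.2 and 33.8 against 82.3, 92.3, 85.3 and 79.1 CPM, and at 80.4, 35.4 and 30.8 CPM in the libraries left out. Gemin4 and Fam177a overlap another annotated gene, and the strand setting of the counting is not given in the sources used here. Slc39a9, a zinc transporter, was at 29.9 and 31.05 CPM in sham and 37.2, 37.6, 27.8 and 5.502 CPM in infarcted libraries, low in MI_ART 2 alone, and did not pass (log2 fold change -0.17 ± 0.62 SE, edgeR adjusted p = 0.872). It was also low in MI_ART 1 and MI_ART 3, at 5.102 and 7.05 CPM, against 30.1 CPM in Sham 2. In the reverse direction, Htt, huntingtin, Higd1a, a hypoxia-induced mitochondrial protein, and Cd38, an NAD-consuming ectoenzyme, passed over all 9 libraries but not here (edgeR adjusted p = 0.0527, 0.0578 and 0.0516). Their estimates differed little, 0.75 and 0.79 for Htt, -0.64 and -0.72 for Higd1a, and 0.96 and 1.10 for Cd38. Of the 7 called genes in these accounts of the choice, 2 and 2 stayed without Sham 1 and Sham 3, 6, 5, 7 and 7 without MI 2, MI 3, MI 4 and MI_ART 2, and 6 with total counts.

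**Figure D5:**
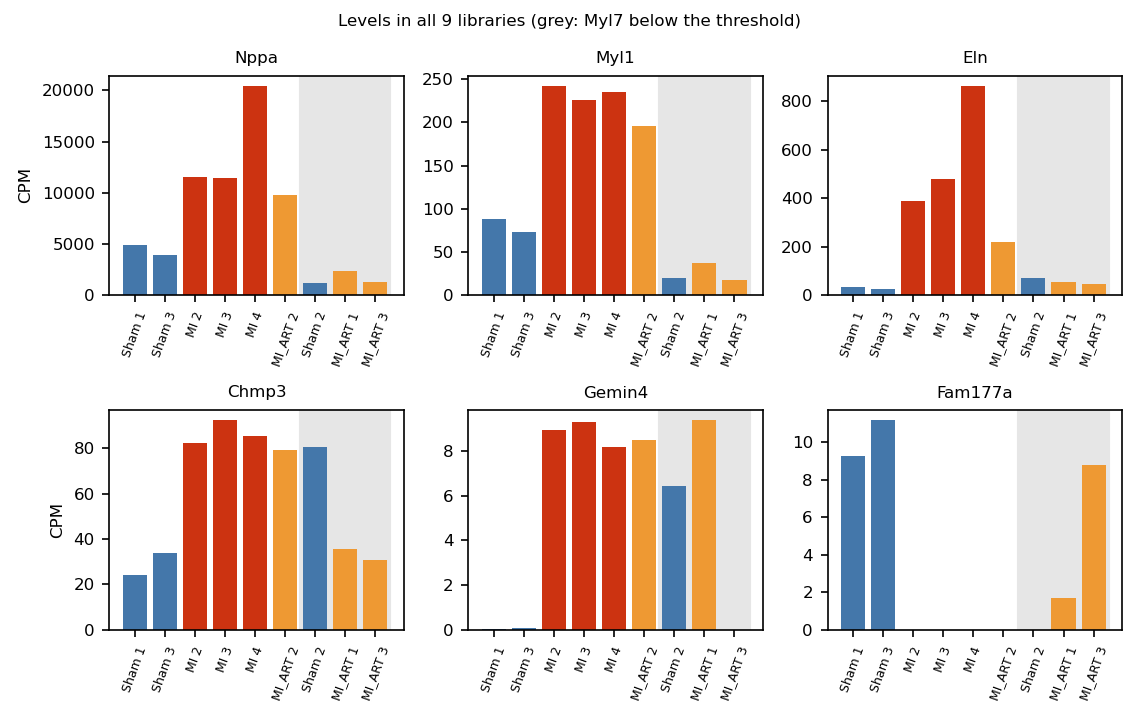
CPM of 6 genes in all 9 libraries, with the 3 libraries below the Myl7 threshold on a grey ground (sham blue, MI red, MI_ART orange, bars from 0). Nppa and Myl1 in the grey libraries lie below Sham 1 and Sham 3, Eln there lies above both and below the 4 infarcted libraries kept, and Chmp3, Gemin4 and Fam177a differ between the grey libraries and do not follow sham or infarction there.

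Leaving out MI_ART 2, the artesunate library, makes the infarcted group vehicle only, and 2085 genes were then higher and 1139 lower. Among the named genes outside the atrial markers, calls lost in that setting were Synpo2l, Fkbp1b, Ltf, Wfdc2, Cdkn1c and Tfam. Of 183 genes examined for position, 181 had coordinates on GRCm38.p6 and 61 overlapped another annotated gene, among them Pln, Myh6, Eln, Timp1 and Arg1. For these, reads of both genes cannot be told apart without a stated strand setting. With 2 against 4 libraries, a p that misses the threshold does not show that levels were alike.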

How the data were processed

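RNA sequencing libraries of 9 samples were analysed from the raw counts per gene that the authors deposited, 55421 genes in all. Counting used featureCounts 1.5.0-p3 with HISAT and the GRCm38 build, and DESeq 1.8.3 is named too, per the submitters' processing notes. The strand setting of the counting and a HISAT version are not given there. The deposited table and the deposited files of single samples held the same counts (maximum difference 0). Input was 1.3 µg of RNA, per the labels.

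Libraries with Myl7 at 300 CPM on the column total or more were kept. TMM factors were computed once over all 9 libraries, and CPM are on that scale. Genes passing filterByExpr were tested with edgeR 4.0.16 in R 4.3.3 (quasi-likelihood F test, 2 against 4 libraries, Benjamini-Hochberg over all tested genes, called at an adjusted p under 0.05), and SE is the absolute log2 fold change divided by the square root of F. Infarcted pools vehicle and artesunate. DESeq2 1.42.0, limma 3.58.1 (voom), other scalings, filters and library sets were alternatives. The script was tested on simulated data. It recovered 2% of 100 changes of 2-fold and 51% of 100 changes of 4-fold, and called 6 of 18851 unchanged genes. The simulation changed 200 of 19666 genes, whereas 16.3% were called in the data, and the adjusted p depends on that share. These recoveries therefore do not give the sensitivity of the comparison itself. Total counts per library were 68046341 to 83685313. Bounds against 3 counts cover counting error only.

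The sham and infarcted libraries kept share only replicate number 3, so the comparison was unblocked. The libraries, lists and genes were chosen with earlier results of these data known. The naming rule took 12 called genes from each end of the log2 fold change among characterised genes at 5 CPM or more in 1 group without overlap, the 4 members of each list with the smallest p with members called against the majority, and the 8 genes with the smallest interaction p. It also took up to 8 genes with an edgeR adjusted p under 0.01 here and over 0.05 over all 9 libraries. Up to 8 were taken the other way, and a fixed set, Col1a1 and Gja1 among it, whatever the result. The text names a subset of these, trimmed after their values were seen. Coordinates come from RefSeq for GRCm38.p6, matched for 17894 of the tested genes (91%). Symbols that occur more than once numbered 115. No sequence was used here, and some genes are not reported here.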

Additional observations from a re-analysis of the deposited data

Results flagged for a closer look

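Among 238 values looked at, 22 had 1 of the 4 infarcted libraries far from the other three, where chance flags about 1 in 20 groups. MI 4 stood apart in 3 list medians, at -1.64 for gap junction and intercalated disc genes, 0.411 for fetal and stress cardiac genes and 1.47 for cytosolic ribosomal proteins. MI 4 also stood apart in heart muscle genes, with Nppa at 20428 CPM, Myl4 at 2898 CPM, Bmp10 at 41.7 CPM and Myl9 at 689 CPM. In matrix and stromal genes MI 4 had Gdf15 at 14.5 CPM, Mfap5 at 260.4 CPM and Cd248 at 51.7 CPM. In signalling and regulatory genes it had Socs3 at 60.7 CPM, Cdkn1a at 68.6 CPM, Junb at 83.97 CPM, Tfam at 23.2 CPM and Galnt16 at 21.1 CPM.

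MI_ART 2, the artesunate library, stood apart with Mme at 7.47 CPM, Ccr2 at 54.9 CPM, Igf1 at 62.2 CPM, Cxcl9 at 6.49 CPM, Cox7a1 at 82.9 CPM and Ndufa5 at 92.5 CPM. MI 3 stood apart with Loxl2 at 140.1 CPM. The part of artesunate in the MI_ART 2 values was not tested.

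The infarction effect on 4933427D14Rik differed between atrial-rich and atrial-poor libraries by a log2 of 4.71 in the interaction test. The atrial-poor side holds 1 sham library, Sham 2.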

How the results depend on the processing

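Against 2098 genes higher and 1099 lower by edgeR, total counts gave 7754 and 178, DESeq2 3201 and 1883, and all 9 libraries 3615 and 2700. With a replicate block over all 9 libraries the counts were 3966 and 3284. The groups kept share only number 3, so a block within them would compare sham and infarcted in that pair alone, and none was run. Leaving out 1 library gave 159 to 2993 higher and 22 to 2191 lower. The other scalings, filters, limma-voom, the fit in 4 cells and a Myl7 threshold of 150 stayed within 1.5 times the count. A threshold of 600 kept 0 sham libraries and was not run. Over all 9 libraries, total counts gave 9898 higher and 383 lower. For the interaction, DESeq2 gave 18 higher and 20 lower, and leaving out 1 library 0 to 5 higher and 0 to 3 lower. The mitochondrial share difference was -24.31 to -20.34 percentage points when 1 library was left out.

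Total counts reversed the medians of pericyte markers (0.156), calcium cycling (0.354), atrial fibrillation risk locus genes (0.515), the natriuretic peptide system (0.501) and the angiotensin and endothelin system (0.403), and the log2 estimates of Myh7 (0.664), Kcna5 (0.048), Gja1 (0.091), Cacna1c (0.098), Gpx4 (0.468), Alox5 (0.007), Slc39a9 (0.717) and Higd1a (0.233). These shift with the median of all genes, 0.928 under total counts. The replicate block reversed smooth muscle markers (-0.242) and Gja5 (-0.132). Gja5 was also between -0.193 (without Sham 3) and 0.454 (without Sham 1) when 1 library was left out, -0.001 over all 9 libraries and -0.059 at a Myl7 threshold of 150. T and NK cell genes were at -0.583 with 1 CPM required in 2 libraries, Ltf between -9.367 (without Sham 3) and 5.429 (without Sham 1) and Slc39a9 between -0.374 (without MI 3) and 0.168 (without MI_ART 2). List medians count as reversed only where the median exceeds the SD of the infarcted libraries' medians. The causes were not tested otherwise. Of 162 called genes named, 39 lost the call with total counts.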

Other observations

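Markers of the heart's inner lining and of lymph vessels are set beside the 16.3% of all tested genes that were called, and their lists are too short to be read against it. Of 5 endocardial markers, Npr3 was the one called, lower in infarcted libraries (median log2 -1.30), and the medians in MI 2, MI 3, MI 4 and MI_ART 2 were -0.86, -1.35, -1.21 and -0.27. The list was split, with 2 members higher and 3 lower without overlap between groups, against 26.6% and 23.2% of all tested genes. Over all 9 libraries 1 was called higher and 2 lower. Of 7 lymphatic endothelial markers, Pdpn, podoplanin, which fibroblasts and mesothelium also make, rose (log2 fold change 2.15 ± 0.29 SE, edgeR adjusted p = 0.0053), and Mmrn1, a multimerin, fell (log2 fold change -1.59 ± 0.39 SE, edgeR adjusted p = 0.0318), with a list median of -0.74.

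Of 18 hypoxia response genes 3 rose and 2 fell (median log2 0.14), and the medians of the 4 infarcted libraries were 0.10, 0.10, 0.07 and 0.11. Car9, a carbonic anhydrase induced by low oxygen, was at 0.864 and 0.286 CPM in sham and 3.85, 2.89, 4.86 and 3.17 CPM in infarcted libraries (log2 fold change 2.68 ± 0.53 SE, edgeR adjusted p = 0.0156). Epas1, the oxygen-regulated factor HIF-2 alpha, was at 243 and 225 against 119, 113, 85.1 and 138 CPM (log2 fold change -1.04 ± 0.24 SE, edgeR adjusted p = 0.0248), and Egln1, the hydroxylase that marks such factors for decay, at 322 and 296 against 135, 107, 75.1 and 168 CPM (log2 fold change -1.35 ± 0.31 SE, edgeR adjusted p = 0.0256). Of these 5 calls, Npr3 aside, 1 stayed without Sham 1 and 0 without Sham 3, 2, 2, 5 and 5 without MI 2, MI 3, MI 4 and MI_ART 2, and 2 with total counts.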
